A study of Caenorhabditis elegans with 4 samples.

Results

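The *pals* genes of *Caenorhabditis elegans* were examined here in animals fed *xrn-2* RNAi food and in mock animals. Members were the genes with a WormBase symbol of *pals-* and a number and with a summed count of at least 40 reads over the 4 libraries. Of the 38 *pals* symbols in the naming table, 36 had a row among the 20380 genes of the counts table, and 33 of these were members, out of 16196 genes that reached the same summed count. The rows that did not reach it were *pals-13* with 0 reads, *pals-40* with 17 and *pals-20* with 27, while *pals-7*, the member with the lowest sum, had 130. No row was found for *pals-10* and *pals-21*. At 20°C, wild-type N2 larvae were fed from the L1 stage up to L4 with bacteria that produce double-stranded RNA against *xrn-2*, which encodes a nuclear 5′-to-3′ exoribonuclease, or with bacteria carrying the insertless L4440 vector (mock). According to the methods, *xrn-2* RNAi animals grew more slowly and were left on the food for longer, and mid-L4 stage was judged by vulval morphology, which means that feeding time is not matched between the conditions. Poly(A) RNA of whole animals was sequenced from 2 cultures of each condition. Libraries of the same replicate number form pair 1 and pair 2, and 2 values of a condition are always given in the order replicate 1, replicate 2.

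The *pals* genes encode proteins that share a divergent signature named after ALS2CR12, and the biochemical function of most is unknown. The family is expanded in *C. elegans*, and many of its genes lie in clusters. A large share of the family belongs to the intracellular pathogen response, a transcriptional programme switched on in the intestine by microsporidia and by the Orsay virus and also by proteotoxic stress. Some members regulate the programme: PALS-22 and PALS-17 hold it off, while PALS-25, PALS-16 and PALS-20 promote it.

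The targeted gene did not follow its label at the level of reads. For *xrn-2*, 5835 and 5977 reads were counted in the libraries labelled *xrn-2(RNAi)*, against 3993 and 5948 in mock, which gave log2 fold changes of 0.31 in pair 1 and -0.04 in pair 2. The paper reports that XRN2 represses its own mRNA, which accumulates when XRN2 is inactivated, so these reads alone do not measure depletion. The extent of depletion was not tested here, and the conditions are named by the labels of the libraries. Library totals lay between 41105706 and 48451504 reads. The mock libraries were the least alike of the 6 library pairs, with a Pearson's r of 0.84 over 16196 genes on the log2 scale, compared with 0.95 between the libraries labelled *xrn-2(RNAi)*. Genes of body wall muscle, neurons, germline and intestine were read in all libraries. Summed scaled reads of 6 molting genes were 109521 and 45724 in *xrn-2(RNAi)* and 185808 and 2666 in mock, and those of 4 oogenesis genes 13490 and 38553 in *xrn-2(RNAi)* and 2771 and 35522 in mock, so that stage-dependent genes differed between replicates of a condition.

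Fold changes were taken within a pair after scaling each library to the mean total and adding 8 reads, and a rise means a log2 fold change of at least 1, which is the 2-fold threshold of the methods. The pair classes below were made with this same contrast, so they describe the libraries and have no test. In pair 1, 15 of 33 *pals* members rose, where 12.9% of all genes did. In pair 2, 28 of 33 rose, where 22.4% of all genes did. A rise in both pairs was seen for 14 members (7.46% of all genes), in pair 2 only for 14 (14.9%) and in pair 1 only for 1 (5.4%), and 4 members rose in neither pair. No member fell by at least 1 in both pairs (2.2% of all genes), while 1 did so in pair 1 (6.42%) and 0 in pair 2 (6.24%). In whole animals, a change in the number of cells that express a gene and a change in RNA per cell cannot be told apart.

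Summed over the 33 members, 7243 and 27515 reads were counted in *xrn-2(RNAi)*, against 2650 and 1623 in mock. The medians over members were 68 and 521 reads in *xrn-2(RNAi)*, against 21 and 13 in mock. The median member had a log2 fold change of 0.67 in pair 1 and 4.62 in pair 2, while the median of all genes was 0.17 and 0.37. The rise was thus much larger in pair 2, and 20 members reached a log2 fold change of 4 there (3.01% of all genes). Both the median and this count include the members that passed the filter only through *xrn-2(RNAi)* 2. The library labelled *xrn-2(RNAi)* 2 gave the highest scaled value for 25 members, and *xrn-2(RNAi)* 1 for *pals-17*, *pals-23* and *pals-24*. Mock 1 was highest for *pals-15*, *pals-16*, *pals-18* and *pals-19*, and mock 2 for *pals-34*. Both *xrn-2(RNAi)* values lay above both mock values for 22 members (35.5% of all genes), and both lay below for none (10.3%).

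**Figure D1:**
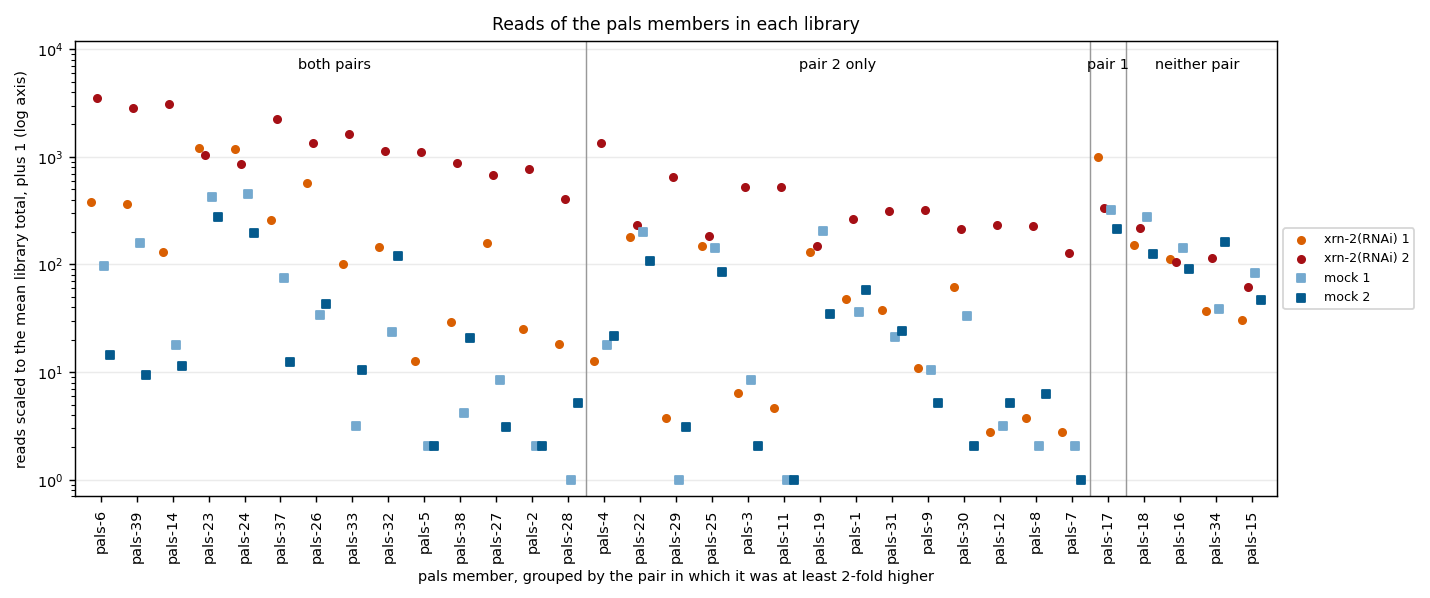
Each point gives the reads of one *pals* member in one library, scaled to the mean library total, plus 1, on a log axis; circles are *xrn-2(RNAi)* 1 and 2, squares are mock 1 and 2. Members are grouped by the pairs in which they were at least 2-fold higher, so the grouping uses the plotted values, and *xrn-2(RNAi)* 2 is the highest library for 25 of the 33.

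Among the members that rose in both pairs were the most abundant of the family. *pals-6* had 424 and 3489 reads in *xrn-2(RNAi)*, against 91 and 13 in mock, with log2 fold changes of 1.90 and 7.36. *pals-39* had 400 and 2821 reads in *xrn-2(RNAi)*, against 148 and 8 in mock, with log2 fold changes of 1.16 and 7.45. *pals-37* had 285 and 2234 reads in *xrn-2(RNAi)*, against 70 and 11 in mock, with log2 fold changes of 1.69 and 6.86. In these 3 genes the groups did not overlap, and the distance in pair 2 came from both sides, as *xrn-2(RNAi)* 2 was the highest library and mock 2 the lowest.

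In *pals-14*, by contrast, the mock libraries were close to each other. It had 143 and 3103 reads in *xrn-2(RNAi)*, against 16 and 10 in mock, and log2 fold changes of 2.45 and 7.41. *pals-33* had 112 and 1632 reads in *xrn-2(RNAi)*, against 2 and 9 in mock, with log2 fold changes of 3.43 and 6.57. *pals-32* had 161 and 1122 reads in *xrn-2(RNAi)*, against 21 and 114 in mock, with log2 fold changes of 2.34 and 3.17. In *pals-32* mock 2 came close to *xrn-2(RNAi)* 1, although the groups did not overlap.

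The largest change in pair 1 belonged to *pals-26*, which had 627 and 1331 reads in *xrn-2(RNAi)*, against 31 and 40 in mock. Its log2 fold changes were 3.81 and 4.77, and scaled to the mean total it had 954 ± 550 reads in *xrn-2(RNAi)*, against 37.3 ± 6.13 in mock (SD, n = 2 each). Its neighbour *pals-27* had 176 and 674 reads in *xrn-2(RNAi)*, against 7 and 2 in mock, with log2 fold changes of 3.43 and 6.09. The third gene of that cluster, *pals-28*, had 19 and 405 reads in *xrn-2(RNAi)*, against 0 and 4 in mock, which is at least 5.37-fold higher in pair 1 against a floor of 3 reads in the mock library. With the counting error of both libraries, the exact 95% interval of this ratio starts at 3.96. In all of these the *xrn-2(RNAi)* libraries stood above both mock libraries.

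*pals-23* and *pals-24* followed another pattern, since *xrn-2(RNAi)* 1 was their highest library. *pals-23* had 1332 and 1026 reads in *xrn-2(RNAi)*, against 395 and 264 in mock, with log2 fold changes of 1.50 and 1.88. *pals-24* had 1318 and 847 reads in *xrn-2(RNAi)*, against 427 and 189 in mock, with log2 fold changes of 1.37 and 2.08. Both were readily counted in mock, and both *xrn-2(RNAi)* libraries stood above both mock libraries. For *pals-23* the scaled mean was 1119 ± 118 reads in *xrn-2(RNAi)*, against 347 ± 103 in mock (SD, n = 2 each).

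*pals-5* and *pals-2* were almost silent in mock. *pals-5*, whose promoter drives the reporter most used for the intracellular pathogen response, had 13 and 1110 reads in *xrn-2(RNAi)*, against 1 and 1 in mock. The log2 fold changes of *pals-5* were 1.12 and 6.96, and its ratio in pair 2 was 1076, with an exact 95% interval of 193 to 42539 that covers counting error only. *pals-2* had 27 and 763 reads in *xrn-2(RNAi)*, against 1 and 1 in mock, with log2 fold changes of 1.84 and 6.43. Both genes thus rested on 1 read per mock library, and the pseudocount sets the size of their fold changes. *pals-38* had 31 and 873 reads in *xrn-2(RNAi)*, against 3 and 19 in mock, with log2 fold changes of 1.68 and 5.0, and in it mock 2 came close to *xrn-2(RNAi)* 1. *pals-5* and *pals-39* lay just inside the threshold in pair 1, and *pals-30*, with a log2 fold change of 0.80, just outside it.

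With the higher of the 2 mock libraries as the reference for both pairs, an alternative chosen after seeing the data, 11 members rose in both pairs. Those lost were *pals-24*, *pals-32* and *pals-38*, at log2 differences of 0.90 in *xrn-2(RNAi)* 2 and of 0.28 and 0.37 in *xrn-2(RNAi)* 1. In *xrn-2(RNAi)* 1, 13 members lay at least 1 above both mock libraries, where 6.56% of all genes did. The count in *xrn-2(RNAi)* 2 was 24, where 10.9% of all genes did. The share of all genes that did so in both libraries was not counted.

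Of the members that rose in pair 2 only, 9 had log2 fold changes of 4.09 to 6.06 there and of -0.34 to 0.80 in pair 1. These were *pals-3*, *pals-4*, *pals-7*, *pals-8*, *pals-9*, *pals-11*, *pals-12*, *pals-29* and *pals-30*. They had 2 to 68 reads in *xrn-2(RNAi)* 1 and 127 to 1337 in *xrn-2(RNAi)* 2, against 0 to 30 reads in the mock libraries. The low end in *xrn-2(RNAi)* 1 was thus at the level of mock. *pals-4* was the most abundant of them, with 13 and 1337 reads in *xrn-2(RNAi)*, against 16 and 20 in mock. *pals-11* had 4 and 521 reads in *xrn-2(RNAi)*, against 0 and 0 in mock, which is at least 168-fold higher in pair 2 against a floor of 3 reads in the mock library, and with the counting error of both libraries the exact 95% interval of this ratio starts at 136. For these low genes a change in pair 1 was mostly not detectable at this depth: the ratio of *pals-7* in pair 1 was 1.70, with an exact 95% interval of 0.088 to 100.1.

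The other members of this class changed less in pair 2. *pals-31* had 41 and 311 reads in *xrn-2(RNAi)*, against 19 and 22 in mock, and a log2 fold change of 3.38 in pair 2. *pals-1* had 52 and 260 reads in *xrn-2(RNAi)*, against 33 and 55 in mock, and a log2 fold change of 2.05 in pair 2. *pals-19* had 143 and 147 reads in *xrn-2(RNAi)*, against 191 and 32 in mock. In *pals-19* the libraries labelled *xrn-2(RNAi)* were alike, and its log2 fold change of 1.92 in pair 2 came from the low value of mock 2.

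The regulatory pair *pals-22* and *pals-25* lay near 0 in pair 1 and near the threshold in pair 2. *pals-22* had 199 and 229 reads in *xrn-2(RNAi)*, against 189 and 103 in mock, with log2 fold changes of -0.16 and 1.05. *pals-25* had 164 and 181 reads in *xrn-2(RNAi)*, against 133 and 80 in mock, with log2 fold changes of 0.06 and 1.06. Here too mock 2 was the library that stood apart, and *pals-22* overlapped between the conditions. Both lay just inside the threshold in pair 2, while *pals-18*, at 0.77, lay just outside it. With TMM scaling the log2 fold changes in pair 2 were 0.70 for *pals-22* and 0.72 for *pals-25*, so that neither reached the threshold. TMM scaling lowered the median of all genes to 0.01 in pair 1 and 0.02 in pair 2, compared with 0.17 and 0.37 under total-count scaling.

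*pals-17*, which encodes a repressor of the response, was the member that rose in pair 1 only. It had 1099 and 330 reads in *xrn-2(RNAi)*, against 300 and 204 in mock, with log2 fold changes of 1.61 and 0.63. *xrn-2(RNAi)* 1 stood apart here and the groups did not overlap. *pals-16*, which encodes an activator and lies beside *pals-17*, had 124 and 104 reads in *xrn-2(RNAi)*, against 134 and 87 in mock. Its values overlapped, and its log2 fold changes were -0.33 and 0.20.

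Besides *pals-16*, 3 members rose in neither pair. *pals-15* was the single member that fell by at least 1 in a pair, with 33 and 60 reads in *xrn-2(RNAi)*, against 77 and 44 in mock, and log2 fold changes of -1.25 and 0.35. *pals-18* had 152 and 217 scaled reads in *xrn-2(RNAi)*, against 277 and 124 in mock, with log2 fold changes of -0.83 and 0.77. *pals-34* had 40 and 113 reads in *xrn-2(RNAi)*, against 35 and 155 in mock, with log2 fold changes of -0.04 and -0.47. In all 3 the conditions overlapped, and in *pals-34* both replicate 2 libraries were above both replicate 1 libraries.

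Within a condition the family moved as well. From *xrn-2(RNAi)* 1 to *xrn-2(RNAi)* 2, 24 of 33 members were higher by at least 1 on the log2 scale, where 8.65% of all genes were. The median difference was 2.95 for the members and 0.08 for all genes. Between the mock libraries, 7 members were lower by at least 1 in mock 2 (17.6% of all genes) and 3 were higher (9.83%). The median member differed by -0.44 between mock 2 and mock 1 and the median gene by -0.16. The members that stood high in one pair tended to stand high in the other: Pearson's r between the fold changes of pair 1 and pair 2 was 0.51 and Spearman's rho 0.56 over 33 members, which were measured in the same libraries and are not independent.

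The summed molting genes were lower in *xrn-2(RNAi)* 2 than in *xrn-2(RNAi)* 1 and highest in mock 1, while the summed *pals* reads were highest in *xrn-2(RNAi)* 2. Within pair 2, however, 5 of the 6 molting genes and 3 of 4 hypodermis genes rose as well (22.4% of all genes). Their median log2 fold changes were 4.87 and 3.11, beside 4.62 for the *pals* members. In pair 1 none of these molting and hypodermis genes rose (12.9% of all genes), and the medians were -0.70 for molting and -0.89 for hypodermis genes. The oogenesis sum, like that of the *pals* members, was highest in *xrn-2(RNAi)* 2, but mock 2 lay close to it. All 4 oogenesis genes rose in pair 1 (12.9% of all genes) and none in pair 2 (22.4%). Mock 2, which had the fewest *pals* reads, also had the lowest sums of the molting genes and of 4 hypodermis genes, whose scaled sums were 33481 and 17830 in *xrn-2(RNAi)* and 46781 and 2083 in mock. The hypodermis gene *elt-3* went the other way, with 634 and 371 scaled reads in *xrn-2(RNAi)* and 1248 and 1861 in mock. Its log2 fold change in pair 2 was -2.30, while *dpy-7*, *rol-6* and *nhr-25* were lowest in mock 2. The intestine is the tissue in which the pathogen response is known. Its 4 markers found, *elt-2*, *ges-1*, *ifb-2* and *elt-7*, summed to 14027 and 18586 scaled reads in *xrn-2(RNAi)* and to 14296 and 23279 in mock. Most of this sum was *ifb-2*, with 9998 and 15008 in *xrn-2(RNAi)* and 10050 and 20884 in mock. The other markers, *elt-2*, *ges-1* and *elt-7*, were instead lowest in mock 2, at 1008, 1100 and 286. No intestine marker rose in both pairs (7.46% of all genes), and 1 of the 4, *elt-7*, rose in pair 2 (22.4%). By the staging given in the methods, pair 2 was matched less closely in developmental time than pair 1. Both libraries of pair 1 correlated best with the same time point, and those of pair 2 with later time points that differed between the conditions. For this reason the paper centred its own analysis on pair 1. The part of stage in the *pals* values was not tested.

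**Figure D2:**
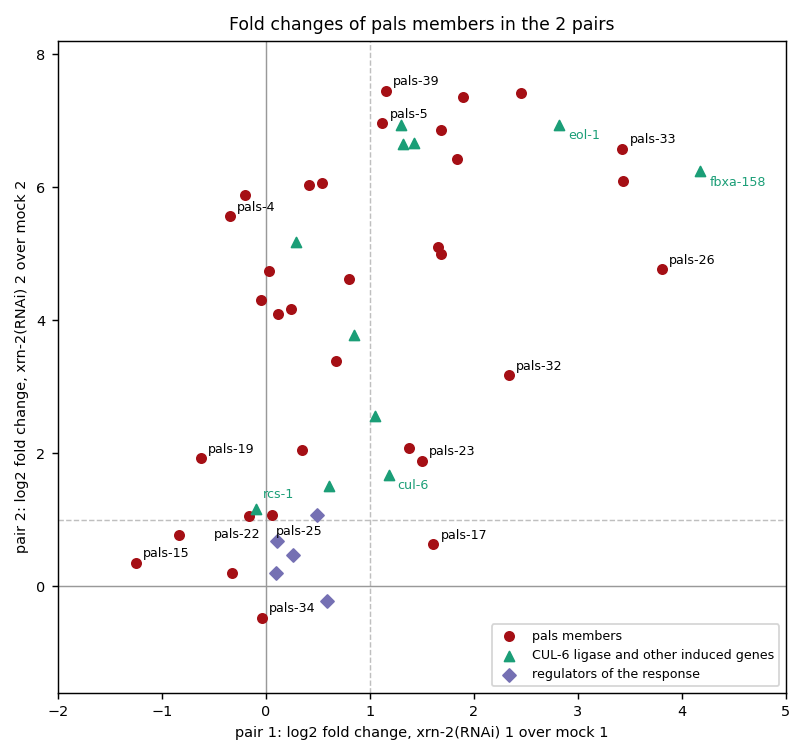
Log2 fold changes of *xrn-2(RNAi)* over mock in pair 1 (x axis) and in pair 2 (y axis), with dashed lines at 1. Circles are the 33 *pals* members, triangles the CUL-6 ligase and other induced genes and diamonds regulators of the response; 14 circles lie past both lines and most lie higher in pair 2 than in pair 1.

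Levels of different genes were compared as scaled reads per kb of exon, with exon lengths of the WBcel235 annotation. In *xrn-2(RNAi)* 2, *pals-14* was the highest member with 2638 scaled reads per kb, followed by *pals-6* with 2430 and *pals-39* with 1927. In *xrn-2(RNAi)* 1 the order was *pals-24* with 1175, *pals-17* with 1140 and *pals-23* with 808. In mock, the highest members were *pals-24* with 449 in mock 1 and *pals-17* with 244 in mock 2. So the leading member differed between the *xrn-2(RNAi)* libraries, and each order rests on 1 library. *pals-14* lay above 89.5% of the 19858 genes with a length in *xrn-2(RNAi)* 2 and above 40.1% in *xrn-2(RNAi)* 1, against 26.2% in mock 1 and 25.3% in mock 2. *pals-22* kept a middle level throughout, above 47.6% and 50.7% of genes in *xrn-2(RNAi)* and above 50.1% and 46.6% in mock.

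The position of the members was not used to choose them. Genes of the family with at most 5 other genes between them were taken as a cluster in the WBcel235 annotation, an assembly other than that of the counts. The largest cluster, on chromosome I, held 14 *pals* genes of which 12 were members. Of these, 11 rose in pair 2 (22.4% of all genes) and 4 in both pairs (7.46%), but most of the 11 had passed the summed count only through *xrn-2(RNAi)* 2. The median log2 fold change of this cluster was 0.18 in pair 1 and 5.72 in pair 2, so that most of its genes were those with a rise in pair 2 only. *pals-15*, at one end of that cluster, was the exception in pair 2. The cluster of *pals-26*, *pals-27* and *pals-28* on chromosome III had medians of 3.43 and 5.10, and all 3 rose in both pairs, as did *pals-37*, *pals-38* and *pals-39* on chromosome V. By comparison, the chromosome III cluster with *pals-16*, *pals-17*, *pals-18* and *pals-19* had medians of -0.48 and 0.70, and none of its members rose in both pairs. *pals-29* and *pals-30* on chromosome IV rose in pair 2 only. Without the cluster on chromosome I, left out after seeing the data, 10 of 21 members rose in both pairs (7.46% of all genes).

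**Figure D3:**
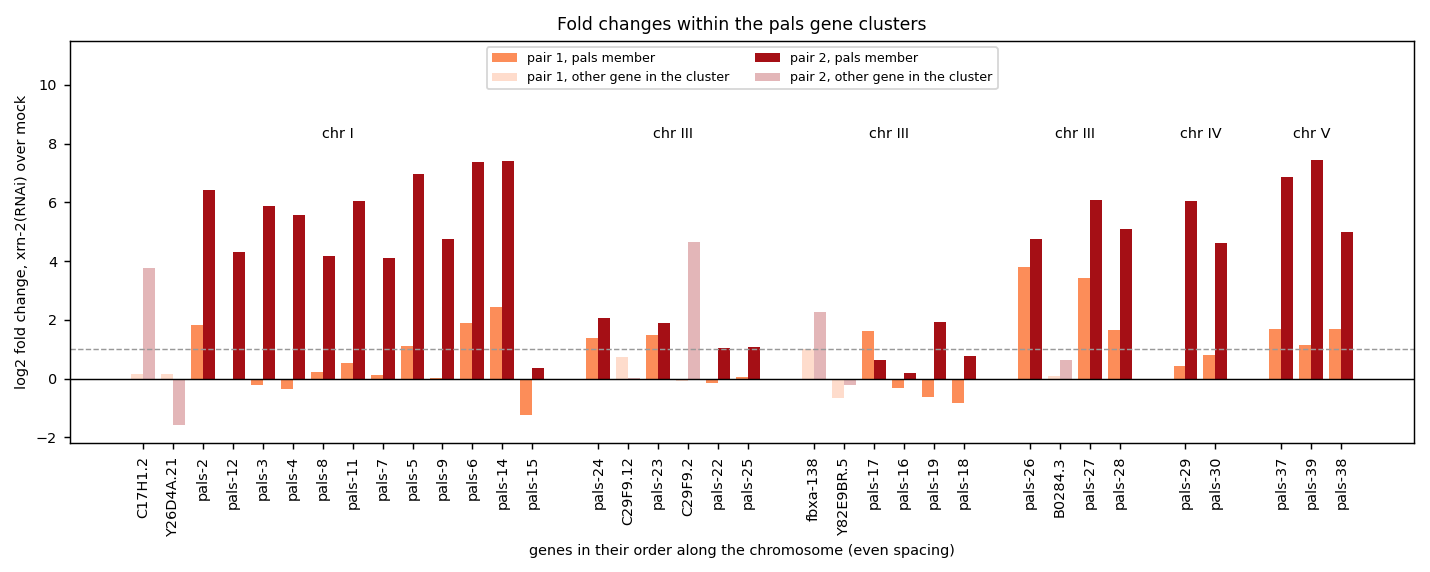
Log2 fold changes of *xrn-2(RNAi)* over mock for *pals* members and for other genes inside the same cluster, in pair 1 (orange) and pair 2 (red), in their order along the chromosome with even spacing. The chromosome I cluster shows mostly tall pair 2 bars and shorter pair 1 bars up to *pals-15*. The chromosome III cluster around *pals-17* shows mostly low bars. Past 1 in it are *pals-17* in pair 1 (1.61), *pals-19* in pair 2 (1.92) and the F-box gene *fbxa-138* in both (1.01 and 2.27).

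Other genes inside the clusters were also read. Of 7 of them with at least 40 reads, 1 rose in pair 1 (12.9% of all genes) and 3 rose in pair 2 (22.4%). Among them 1, the F-box gene *fbxa-138*, rose in both (7.46%). It had 85 and 70 reads in *xrn-2(RNAi)*, against 32 and 8 in mock. C17H1.2, inside the chromosome I cluster, had 1 and 100 reads in *xrn-2(RNAi)*, against 0 and 0 in mock, a pattern like that of its *pals* neighbours. Of 12 genes next to a cluster or to a member that stands alone, 2 rose in pair 1 (12.9% of all genes) and 4 in pair 2 (22.4%). The difference between these neighbours and the members was not tested.

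Some members are transcribed together in operons, where a downstream gene is processed from a shared precursor. For the operon of *pals-22* and *pals-25*, the log2 fold change of the second gene minus that of the first was 0.22 in pair 1 and 0.01 in pair 2. The difference for *pals-24* and *pals-23* was 0.13 and -0.19, and that for *pals-39* and *pals-37* was 0.53 and -0.59. In these 3 operons both genes changed to a similar extent and the difference stayed under 1. *pals-19* and *pals-18* differed by -0.21 in pair 1 and by -1.15 in pair 2, where the first gene had 32 reads in mock 2. The largest differences were those of *pals-30* and its downstream gene T27E7.9, at -1.11 and -3.29, but T27E7.9 had only 4 and 12 reads in *xrn-2(RNAi)*, against 6 and 0 in mock. Whether the counting used the strand of reads is not stated, nor how reads that match several similar *pals* genes were counted, and some gene models overlap. *pals-12* shares 99.5% of its exon bases with *pals-3* on the same strand, so that reads of these genes may not be separable, and 39.3% of the exon bases of *pals-37* lie opposite the antisense RNA *anr-30*.

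Genes outside the family that are known to belong to the response were read on the same scale. CUL-6 is a cullin that builds a ubiquitin ligase with the Skp1-related SKR-3, SKR-4 and SKR-5, the RING protein RCS-1 and the F-box proteins FBXA-75 and FBXA-158. All 7 genes of this ligase rose in pair 2 (22.4% of all genes) and 4 rose in both pairs (7.46%), with medians of 1.05 and 2.56. *fbxa-158* had 578 and 1058 reads in *xrn-2(RNAi)*, against 20 and 6 in mock, with log2 fold changes of 4.18 and 6.24. *cul-6* itself had 1150 and 1153 reads in *xrn-2(RNAi)*, against 426 and 345 in mock, with log2 fold changes of 1.18 and 1.67. *skr-4* had 1903 and 2820 reads in *xrn-2(RNAi)*, against 775 and 456 in mock, and *fbxa-75* had 15 and 792, against 0 and 0 in mock. At the low end *rcs-1* had 1832 and 2179 reads in *xrn-2(RNAi)*, against 1658 and 942 in mock. Both *xrn-2(RNAi)* values lay above both mock values for 6 of the 7 genes, where 35.5% of all genes did so.

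Of the 4 other induced genes, all rose in pair 2 (22.4% of all genes) and 3 in both pairs (7.46%). *eol-1*, related to the mammalian DXO decapping enzymes, had 154 and 1845 reads in *xrn-2(RNAi)*, against 12 and 7 in mock, with log2 fold changes of 2.82 and 6.93. F26F2.1 had 69 and 2532 reads in *xrn-2(RNAi)*, against 19 and 17 in mock. F26F2.3 had 39 and 1213 reads in *xrn-2(RNAi)*, against 9 and 2 in mock. As in most *pals* members, *xrn-2(RNAi)* 2 was the highest library in each. F26F2.4 had 2 and 279 reads in *xrn-2(RNAi)*, against 0 and 0 in mock. These genes were chosen with earlier results of these data known, so their counts are a description.

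Known regulators of the response lay mostly under the threshold. Of *pnp-1*, *zip-1*, *sta-1*, *drh-1* and *lin-35*, none rose in both pairs (7.46% of all genes), and the medians were 0.26 and 0.46. *zip-1*, a bZIP transcription factor needed for induction of part of the response, had 1099 and 1482 reads in *xrn-2(RNAi)*, against 662 and 683 in mock, with log2 fold changes of 0.49 and 1.06. *pnp-1*, a purine nucleoside phosphorylase that holds the response off, had 5020 and 5550 reads in *xrn-2(RNAi)*, against 2838 and 6298 in mock, and overlapped between the conditions. The antiviral RNAi genes *drh-1*, *rde-1*, *rde-4* and *dcr-1* had log2 fold changes of 0.26 to 0.50 in pair 1 and of 0.25 to 0.47 in pair 2. None reached the threshold, although for 3 of these 4 genes both *xrn-2(RNAi)* values lay above both mock values (35.5% of all genes).

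**Figure D4:**
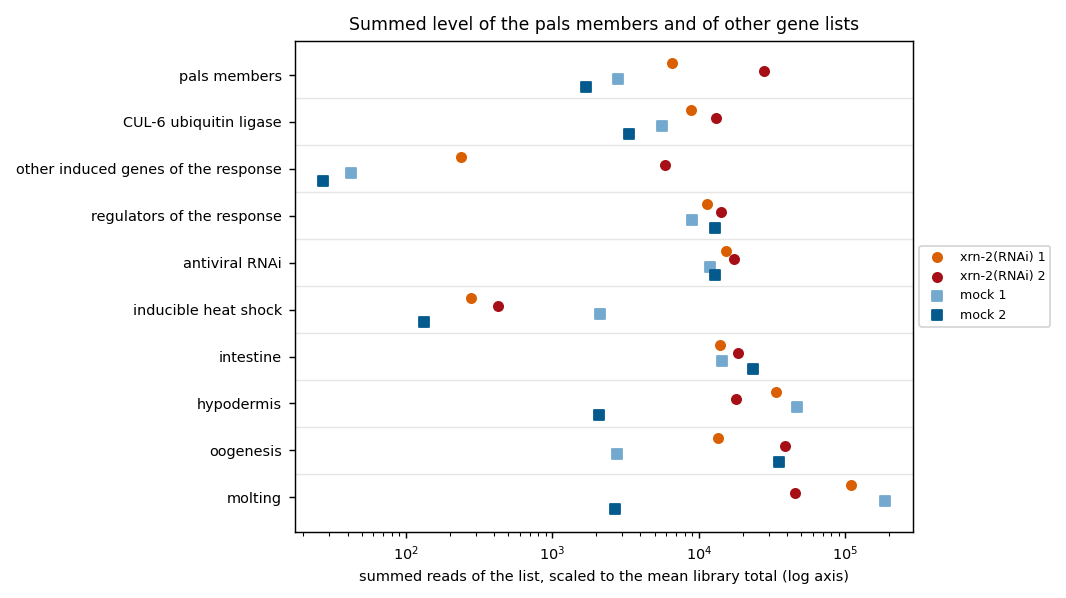
Summed scaled reads of the *pals* members and of other gene lists in each library, on a log axis, with *xrn-2(RNAi)* 1 and 2 as circles and mock 1 and 2 as squares. The *pals* members and the other induced genes are highest in *xrn-2(RNAi)* 2, whereas the molting genes are highest in mock 1 and lowest in mock 2.

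Across the whole table, edgeR's quasi-likelihood test with the replicate as a block called 0 of 16178 genes at a Benjamini-Hochberg adjusted p of 0.05 (0% of genes), with 2020 genes at an unadjusted p under 0.05. Of the 33 members, 26 passed the filter on low counts, of which 11 had an unadjusted p below that level. For edgeR the lowest adjusted p among members was 0.254. DESeq2 on the same genes called 2746 (17% of genes) at an adjusted p of 0.05, among them 11 members, all higher in *xrn-2(RNAi)*, where 8.07% of genes were called higher. With no filter on low counts before the fit, chosen after seeing the data, it called 817 genes, among them 13 members, again all higher. DESeq2's own filter on mean counts still applied and left 16717 genes with an adjusted p. Of these, 4.89% were called and 3.12% were called higher. The contrast is the one that defined the classes, so these counts are no independent evidence of a change in the family. Replicates are separate cultures, 2 per condition. With the replicate as a block, p-values rest on how the difference within a pair varied between the 2 pairs. Leaving out replicate 2, that is pair 1 alone, gave 15 members that rose, and leaving out replicate 1 gave 28.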

How the data were processed

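Poly(A) RNA libraries of 2 mock and 2 *xrn-2(RNAi)* cultures were grouped by the conditions and replicate numbers in their titles. The authors aligned TruSeq reads to ce10 with qAlign of QuasR and spliced alignment, sorted them with Samtools, and deposited counts of reads over the exons of each WS220 gene, whole numbers without normalization, for 20380 genes. Use of the strand and the handling of reads that match several genes are not stated. Totals were 41105706 to 48451504 reads per library. Symbols and chromosome order came from the WBcel235 annotation, another assembly, so no coordinates are given.

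Counts were scaled to the mean total of 43719995, 8 reads were added to each value, and a log2 fold change was computed per replicate pair, as in the methods. Exact 95% intervals of count ratios cover counting error only, and a count of 0 was set to a floor of 3 reads. edgeR 4.0.16 in R 4.3.3 (TMM, filterByExpr, glmQLFTest, replicate as a block) and DESeq2 1.42.0 were run on all genes and edgeR was tested on simulated counts. The block follows the methods, which pair replicates: same-numbered libraries deviated together from their group means, with r = 0.57 over 16178 genes. An exact permutation test of 2 against 2 cannot go below p = 0.333, and none was made.

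The members and gene lists were chosen with earlier results of these data known. Values per library were to be given for members that rose in both pairs or fell in one, for *pals-5*, *pals-22* and *pals-25* and for the 6 most abundant, and others by class; some further members are given in full. Lists were the CUL-6 ligase, other induced genes, regulators, antiviral RNAi, *chil* genes, inducible heat shock and markers of tissues and molting. Alternatives were adding 1 read instead of 8, scaling by TMM or by median of ratios, a summed count of 400, a log2 threshold of 0.5, other edgeR settings, DESeq2 and each replicate left out. Protein identity and promoter motifs were planned and not analysed here.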

Additional observations from a re-analysis of the deposited data

How the results depend on the processing

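The number of members that rose in both pairs was 14. With a replicate left out, 1 pair remains: 15 members rose in pair 1 and 28 in pair 2, and both counts include these 14 by construction. The number that fell in both pairs was 0, while 1 member fell in pair 1 and 0 in pair 2. The number that rose in both pairs was 16 with a pseudocount of 1, where *pals-11* and *pals-29* joined, 13 with TMM scaling, where *pals-39* had a log2 fold change of 0.99 in pair 1, and 18 with a threshold of 0.5. The share of all genes was counted for the main setting only, at 7.46%. *pals-22* and *pals-25* left the class of pair 2 only under TMM and under median-of-ratios scaling, with log2 fold changes of 0.67 and 0.69 under median-of-ratios scaling. Single fold changes were also recomputed with either other scaling or with 1 read added, 198 values in all. Some near 0 changed sign, such as *pals-16* in pair 2, at 0.20 in the main setting and -0.15 with TMM scaling. In pair 2, 32 members lay above 0 in the main setting, 31 with TMM and 30 with median-of-ratios scaling. In pair 1 these counts were 24, 22 and 22. With edgeR and no replicate block, 0 of 16178 genes were called, as with the block (1644 and 2020 genes at an unadjusted p under 0.05). With 0 calls in both fits, the calls cannot show what the block changes. Other scaling, no filter on low counts or each library left out gave 0 calls in edgeR. DESeq2 called 2746 genes and 11 members on the same genes. It called 817 genes and 13 members with no filter before the fit but its own filter on mean counts, a setting chosen after seeing the data. The cause of this gap was not tested. Depth limits members with few reads: in mock 2, 18 of 33 had fewer than 20.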

Other observations

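The *chil* genes, chitinase-like genes that respond to oomycetes, did not share the pattern of the *pals* members. Of 26 *chil* genes, 11 had at least 40 reads. Of these, 1 rose (22.4% of all genes) and 3 fell (6.24%) in pair 2, and 2 fell in pair 1 (6.42%). None rose in both pairs (7.46%) or fell in both (2.2%). *chil-8* had 6 and 6 reads in *xrn-2(RNAi)*, against 11 and 166 in mock, and *chil-24* had 221 and 254 in *xrn-2(RNAi)*, against 178 and 89 in mock. Of 9 inducible heat shock genes, 6 had 0 reads in every library, and the other 3 were highest in mock 1. The rows at 0 included 2 named *hsp-16.1* and 2 named *hsp-16.48*. How reads that match several genes were counted is not stated, so 0 reads need not mean that a gene was silent. *hsp-70* had 211 and 356 reads in *xrn-2(RNAi)*, against 1156 and 87 in mock. The heat shock genes fell by at least 1 in pair 1 in all 3 cases (6.42% of all genes), with a median log2 fold change of -2.73, and had a median of 1.07 in pair 2.

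The remaining tissue markers were read in every library. Body wall muscle markers summed to 352388 and 332139 scaled reads in *xrn-2(RNAi)*, against 334596 and 446787 in mock. Neuronal markers summed to 3356 and 3485 in *xrn-2(RNAi)*, against 4802 and 3212 in mock. Germline markers summed to 65203 and 58012 in *xrn-2(RNAi)*, against 43363 and 64919 in mock, and spermatogenesis markers to 7035 and 5166 in *xrn-2(RNAi)*, against 4119 and 4755 in mock. The muscle sum was highest in mock 2, the neuronal sum in mock 1, and the germline and spermatogenesis sums in *xrn-2(RNAi)* 1. These sums follow their most abundant genes, and some single genes had another highest library. Of the germline genes, *pgl-1* and *pgl-3* were highest in mock 2 and *htp-3* in *xrn-2(RNAi)* 2. The muscle genes *myo-3* and *hlh-1* were highest in mock 1, and the neuronal gene *unc-119* in *xrn-2(RNAi)* 1.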
